A study of Mus musculus with 2 samples.

Results

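CD8 alpha beta T cells of the mouse small intestine were examined in droplet-based single-cell RNA sequencing of crypt-enriched intestinal epithelium. A barcode was taken as such a cell when it had more than 500 detected genes and under 25% of its UMIs (unique molecular identifiers, each standing for 1 captured RNA molecule) from mitochondrial genes. It also needed at least 2 UMIs over Cd3e, Cd3g and Cd3d, at least 1 UMI of Cd8b1, no UMI of Trdc, and fewer than 3 of the 8 cycling genes Mki67, Top2a, Birc5, Ube2c, Cdc20, Ccnb1, Cenpf and Pclaf. By this rule 114 of the 8624 cells that passed the first 2 filters were members. The Adipfl/fl library held 27 of 3069 and the Adipfl/flpVilli-CreT library 87 of 5555. Because the rule read the counts of these same cells, the levels of Cd8b1, the CD3 genes, Trdc and the cycling genes only describe how members were selected on those genes.

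The study asked how adiponectin made by Paneth cells acts on the crypt. Adipfl/fl mice carry a floxed adiponectin gene and served as the control, and Adipfl/flpVilli-CreT mice carry the same floxed gene with Cre driven by the villin promoter, which is active in intestinal epithelium and not in T cells. The tissue came from 8-week-old male mice, and each genotype is 1 library pooled from several animals, given as n = 6 with no word on whether that is per genotype or in all. Below, the Adipfl/fl library is called the control and the Adipfl/flpVilli-CreT library the knockout. With 1 library per genotype no difference between them could be tested, and every 95% interval given here covers counting error only. Adipoq, the targeted gene, had 0 UMIs in the cells that passed in both libraries. A count of 0 allows up to 0.117 UMIs per 1000000 in the control and 0.0614 in the knockout, so Adipoq could not check the genotype labels.

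T cells that live between the cells of the gut epithelium, called intraepithelial lymphocytes, fall into conventional and unconventional kinds. Conventional cells have an alpha beta T cell receptor and the CD8 alpha beta coreceptor, which binds MHC class I molecules, and descend from thymus-derived T cells that were activated by antigen elsewhere. Unconventional cells are the gamma delta T cells and the alpha beta T cells that carry CD8 alpha homodimers. They are known for natural killer type signalling adaptors and for high granzyme levels without recent priming. Retention in the epithelium is known to rest on the integrin CD103 (Itgae), which binds E-cadherin.

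The promoters of 3 genes are shown because these genes, none of which the rule used, had higher summed levels in the members than in gamma delta T cells of both libraries. They are Ms4a4b, a membrane protein of the MS4A family that modulates T cell activation, Gzmk, which encodes granzyme K, and Ly6c2, a surface protein of circulating and memory CD8 T cells. Sequences are from RefSeq on GRCm38.p6 and run 5′ to 3′ from 250 bases before to 50 bases after the start site. Capitals mark, on either strand, the letters GGAAGT (an ETS core), TGTGGT (a RUNX core) or CTTTGA (a TCF/LEF core). No 2 motifs shared a base here.
Ms4a4b, chr19:11443308-11443607, plus strand: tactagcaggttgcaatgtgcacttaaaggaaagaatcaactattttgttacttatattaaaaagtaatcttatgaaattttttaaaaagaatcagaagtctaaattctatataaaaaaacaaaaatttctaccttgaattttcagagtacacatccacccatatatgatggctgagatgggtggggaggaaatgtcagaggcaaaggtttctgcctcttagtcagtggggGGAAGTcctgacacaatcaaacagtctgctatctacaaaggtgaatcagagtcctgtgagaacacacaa
Gzmk, chr13:113180916-113181215, minus strand: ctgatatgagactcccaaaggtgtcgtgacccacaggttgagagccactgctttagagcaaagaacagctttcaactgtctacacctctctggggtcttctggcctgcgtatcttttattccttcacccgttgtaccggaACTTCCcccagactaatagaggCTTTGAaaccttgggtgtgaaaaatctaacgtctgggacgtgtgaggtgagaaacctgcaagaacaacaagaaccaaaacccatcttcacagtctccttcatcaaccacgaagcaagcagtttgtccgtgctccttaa
Ly6c2, chr15:75111922-75112221, minus strand, the first of 2 listed starts: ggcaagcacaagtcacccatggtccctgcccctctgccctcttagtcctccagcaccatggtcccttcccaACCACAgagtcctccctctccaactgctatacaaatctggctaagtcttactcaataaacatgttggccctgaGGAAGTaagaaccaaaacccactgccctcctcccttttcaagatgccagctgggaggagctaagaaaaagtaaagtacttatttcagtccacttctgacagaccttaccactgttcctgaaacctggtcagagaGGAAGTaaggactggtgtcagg
The ETS letters were found once in Ms4a4b, once in Gzmk and at 2 places in Ly6c2. The TCF/LEF letters were found in Gzmk and the RUNX letters in Ly6c2, 1 match each. Of 27025 promoters of this length, 24.1% held the ETS letters, 16.9% the RUNX letters and 16.2% the TCF/LEF letters, so these matches are common. A match describes the letters only.

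The members held 143193 UMIs in the control, with a median of 4468 per cell (2027 to 12569), and 458996 in the knockout, with a median of 4053 (1734 to 33736). They had a median of 1864 and 1698 detected genes and a median of 2.95% and 2.79% mitochondrial UMIs. Levels below are UMIs of a gene summed over the members of a library and scaled to 1000000 of their UMIs (CPM). No member's barcode occurred in both libraries, which shared 31 barcodes in all. All CD3 cells, meaning cells that passed with at least 2 CD3 UMIs, had a median of 5319 and 4722.5 UMIs, but they include the cycling cells that the rule left out. Under the same cycling limit, gamma delta T cells had a median of 5066 and 4550 UMIs. Those with neither Cd8b1 nor Trdc had a median of 4396 and 3890. The members lay between these classes.

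Genes that the rule did not use were set against the label. Cd8a, the other chain of the coreceptor, was found in 23 of 27 control and 83 of 87 knockout members and stood at 782 CPM (112 UMIs) and 725 CPM (333 UMIs). Trac, the constant part of the T cell receptor alpha chain, stood at 622 CPM (89 UMIs, 23 of 27 cells) and 479 CPM (220 UMIs, 71 of 87 cells). Neither gene sets the members apart from all other CD3 cells. Cd8a stood at 1047 and 886 CPM in gamma delta T cells and at 1043 and 691 CPM in CD3 cells with neither Cd8b1 nor Trdc, where Trac stood at 750 and 521 CPM. In gamma delta T cells Trac stood at 290 and 216 CPM. Trbc2, a beta chain constant gene, was found in 27 of 27 and 84 of 87 members at 1927 and 1218 CPM. Trbc2 is no marker of the alpha beta lineage by itself, since gamma delta T cells of the same libraries held it at 1193 and 853 CPM. Trbc1 and Trbc2 are near-identical in sequence, so the split of reads between them is uncertain. Cd4 had 1 UMI in the control members and 0 in the knockout members, and Foxp3, which marks regulatory T cells, had 0 in both.

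Ms4a4b and Gzmk, given with the definition of these cells as markers, were high in the members of both libraries. Ms4a4b stood at 922 CPM (132 UMIs in 26 of 27 cells) in the control and 839 CPM (385 UMIs in 71 of 87 cells) in the knockout. Gzmk stood at 356 CPM (51 UMIs in 15 of 27 cells) and 288 CPM (132 UMIs in 46 of 87 cells). After each cell was thinned to 1500 UMIs, Ms4a4b was detected in 77.8% of control members (exact 95% interval 57.7 to 91.4) and 60.9% of knockout members (49.9 to 71.2). It was detected in none of 2334 and none of 4567 thinned epithelial barcodes, meaning cells with at least 5 UMIs of epithelial genes and none of CD3 or Ptprc, which show how much free T cell RNA droplets took up. The exact upper limits of these zeros are 0.158% and 0.0807%, and no member, but 39 and 100 epithelial barcodes, were too shallow to be thinned. Before thinning, 0.126% and 0.107% of epithelial barcodes had an Ms4a4b UMI at a median depth of 4655 and 4609 UMIs. Gzmk was detected in 33.3% of thinned control members (16.5 to 54.0) and 36.8% of thinned knockout members (26.7 to 47.8), against 0 and 0.0219% of epithelial barcodes. Gzma RNA was less clean. It was detected in 63.0% and 70.1% of thinned members, but also in 3.68% and 2.76% of thinned and 13.5% and 11.6% of unthinned epithelial barcodes.

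Cells near the rule's limits are described here without a test. Exactly 1 Cd8b1 UMI was found in 9 control and 23 knockout members, and 18 and 64 had 2 or more. Ms4a4b stood at 1015 and 745 CPM in members with 1 Cd8b1 UMI and at 879 and 868 CPM in those with more. It stood at 183 and 143 CPM in CD3 cells just outside, with no Cd8b1 and no Trdc UMI. Gzma, a granzyme, stood at 15760 and 18549 CPM in members with 1 Cd8b1 UMI, 9562 and 8858 CPM in those with more, and 28261 and 20096 CPM just outside. In the control 1 cell held 557 of the 714 Gzma UMIs of the members with 1 Cd8b1 UMI, and without it they stood at 4270 CPM, below those with more. No member had only 2 CD3 UMIs, and no cell with Cd8b1 was left out for a single Trdc UMI. Cd8b1 with 2 or more Trdc UMIs was found in 1 control and 4 knockout cells, whose Trgc1 level was 1860 and 1287 CPM, against 110 and 9.19 CPM in members with 1 Cd8b1 UMI. In members, 3 and 2 cells had 2 cycling genes, and 3 and 20 cells had 1. Between 10% and 25% mitochondrial UMIs were found in 3 and 13 members, and 1 knockout barcode just over that limit met the rest of the rule. Cd8b1 was also found in 20 control and 12 knockout cells with fewer than 2 CD3 UMIs, none of which had a Trac or Trbc2 UMI. These cells held Siglech at 1485 and 882 CPM and Ly6d at 2521 and 1840 CPM, both at 0 UMIs in all members, with Bst2 at 1753 and 1207 CPM. They were mixed, with Siglech in 18 of 20 and 8 of 12 cells, Epcam at 1248 and 1581 CPM in 9 and 8 cells, and 264 Jchain UMIs in 2 knockout cells. Siglech and Bst2 are known from plasmacytoid dendritic cells. Among CD3-poor cells of this tissue Cd8b1 alone was therefore not specific to T cells.

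RNA of gamma chains was present in some members although the rule asked for no Trdc. No UMI of the gamma chain constant genes Trgc1 to Trgc4 was found in 17 of 27 control and 42 of 87 knockout members, while 8 and 32 members had 2 or more. Trgc2 was the most abundant of them, with 15 UMIs in 7 control cells and 98 UMIs in 38 knockout cells, or 105 and 214 CPM. Trgc1 stood at 69.8 CPM (10 UMIs) and 8.71 CPM (4 UMIs), far below the 872 and 823 CPM of gamma delta T cells. Whether members with gamma chain RNA also carry a delta chain that was not captured was not tested.

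**Figure D1:**
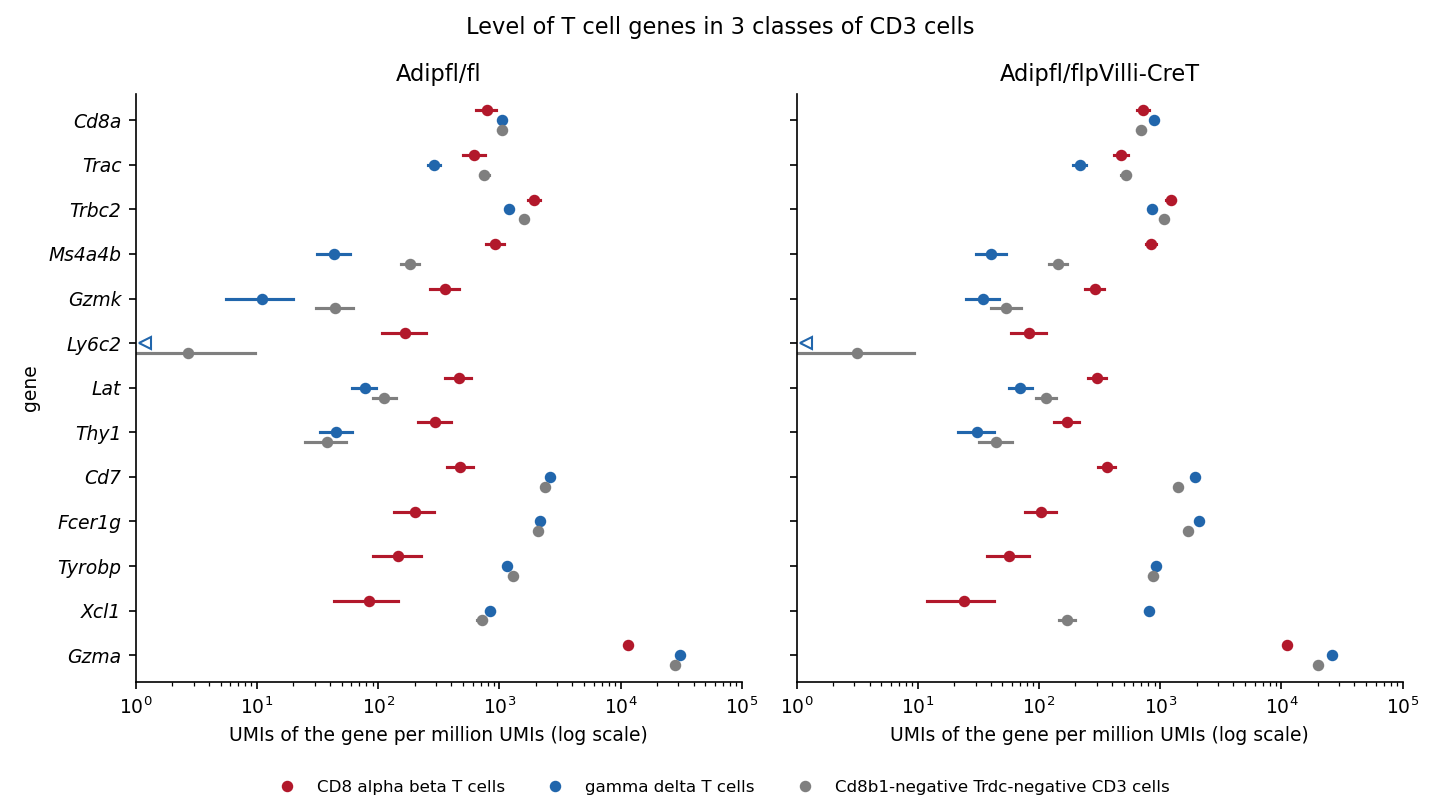
Level of 13 genes (UMIs per 1000000, log axis) in CD8 alpha beta T cells, gamma delta T cells and Cd8b1-negative Trdc-negative CD3 cells of each library, with exact Poisson 95% intervals for counting error. The members lie to the right of the other classes for Ms4a4b, Gzmk, Ly6c2, Lat and Thy1 and to the left for Cd7, Fcer1g, Tyrobp, Xcl1 and Gzma in both panels, and open triangles mark 0 UMIs of Ly6c2 in gamma delta T cells.

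Some members carried much epithelial RNA, and these stood apart in both libraries. The share of a member's UMIs that fell on 25 epithelial and 12 goblet and Paneth cell genes was at least 2% in 4 of 27 control members (14.8%) and 13 of 87 knockout members (14.9%), so the shares of such cells were alike. They were deep, with a median of 6737.5 and 11313 UMIs against 4339 and 3812 in the remaining 23 and 74 members. They also had more mitochondrial UMIs, with a median of 11.3% and 11.5% against 2.77% and 2.47%. The same cells held 76.4% of the UMIs of these genes of all control members and 92.4% of those of all knockout members. These genes took 1.10% of all member UMIs in the control and 3.40% in the knockout, but 0.336% and 0.405% once these cells were left out, against 11.6% and 10.9% in epithelial barcodes. Whether they are droplets with a T cell and an epithelial cell was not tested, and no doublet caller was run. Levels between the libraries are given below over all members, and beside many of them also without these 17 cells, a choice made after the data were seen.

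**Figure D2:**
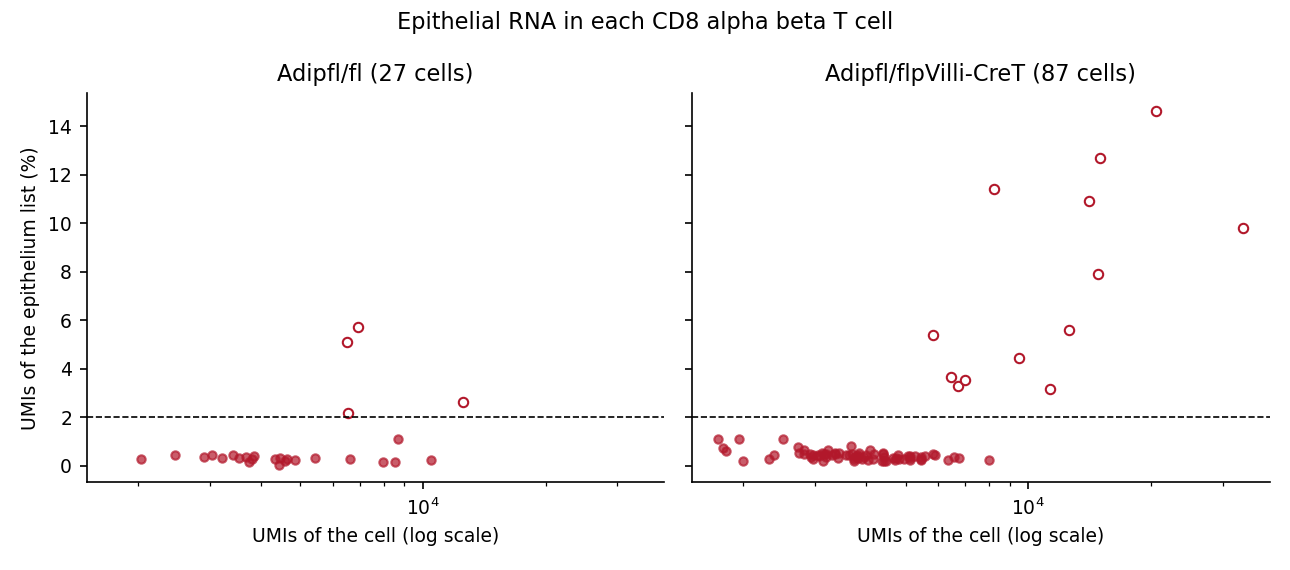
Percent of each CD8 alpha beta T cell's UMIs on the epithelial gene list against its total UMIs (log axis), in the 27 control and 87 knockout cells. Open circles above the dashed line at 2% are the 4 control and 13 knockout cells that carry most of the epithelial RNA, and the knockout ones reach higher totals.

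Other cell types left little RNA in the members. Of the 18 myeloid genes, 10 were at 0 in both libraries, among them Lyz2, Csf1r, Cd14 and C1qa, and the list summed to 230 and 270 CPM with Cst3 as its most abundant gene. Of 12 B and plasma cell genes, 6 were at 0 in both, Cd79a and Ms4a1 included, and the list, led by Ighm, summed to 105 and 194 CPM. Of 10 stroma genes, 8 were at 0 in the control and 9 in the knockout. Ncr1, a defining receptor of natural killer cells, was at 0 in both. The list of 12 natural killer and innate lymphoid genes summed to 496 and 229 CPM, led by Fcer1g, whose UMIs sat in few cells. Fcer1g had 29 UMIs in 2 of 27 control members and 48 UMIs in 4 of 87 knockout members, of which 1 cell held 38.

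The members made up a larger share of the knockout library. They were 0.880% of the control cells that passed (exact 95% interval 0.581 to 1.28) and 1.57% of the knockout cells (1.26 to 1.93), a ratio of 1.78 (1.14 to 2.85). Counting only members at or below the median epithelial share, 19 and 38 cells, the ratio was 1.10 (0.621 to 2.03), an interval that includes 1. Gamma delta T cells, which had Trdc and no Cd8b1, ran the other way at 6.06% (5.24 to 6.96) and 3.82% (3.33 to 4.35), a ratio of 0.630 (0.515 to 0.771). Cd8b1-negative Trdc-negative CD3 cells also had a smaller share in the knockout, with 4.95% and 3.19% and a ratio of 0.643 (0.515 to 0.804). All CD3 cells made up 15.0% and 10.4%, and epithelial barcodes 77.3% and 84.0%, of the cells that passed. Of the CD3 cells, 5.88% (3.91 to 8.44) were members in the control and 15.1% (12.2 to 18.2) in the knockout, a ratio of 2.56 (1.65 to 4.10). On this scale gamma delta T cells made up 40.5% and 36.7%, a ratio of 0.905 (0.740 to 1.11). Cd8b1-negative Trdc-negative CD3 cells made up 33.1% and 30.6%, a ratio of 0.925 (0.740 to 1.16). Both of these intervals include 1.

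**Figure D3:**
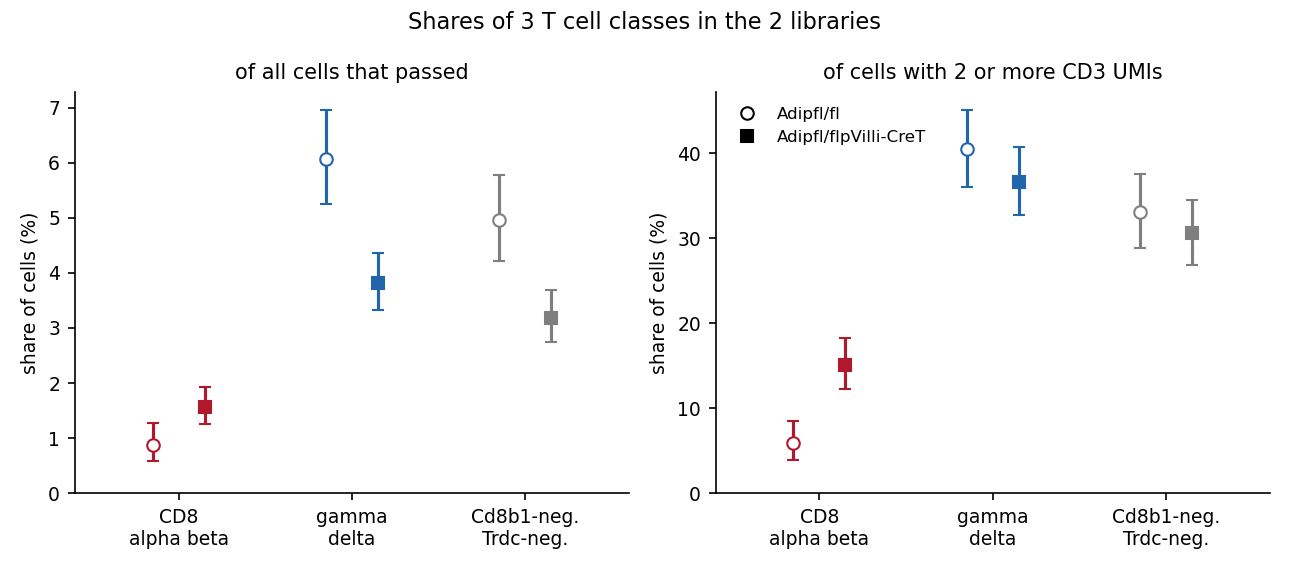
Share of CD8 alpha beta T cells, gamma delta T cells and Cd8b1-negative Trdc-negative CD3 cells (percent of cells), of all cells that passed on the left and of CD3 cells on the right, with exact binomial 95% intervals. Open circles are the control and filled squares the knockout, and the members are the one class whose share is higher in the knockout on both scales.

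Sums of UMIs over cells depended on which cells were summed. Over all CD3 cells Cd8b1 stood at 57.4 CPM (169 UMIs) in the control and 98.7 CPM (392 UMIs) in the knockout, a fold of 1.72 (1.43 to 2.07). Trdc over the same cells stood at 593 and 474 CPM, a fold of 0.799 (0.748 to 0.853). Cd8b1, Trdc and CD3 are all part of the rule, so these sums restate the shares. Over all cells that passed, Trdc stood at 68.7 and 39.0 CPM, a fold of 0.567 (0.531 to 0.606), while Cd8b1 ran the other way from the share of members, at 10.9 CPM (279 UMIs) and 8.86 CPM (433 UMIs), a fold of 0.815 (0.700 to 0.951). Of those UMIs, 110 and 41 lay in the 20 and 12 cells that had Cd8b1 but too little CD3. Ms4a4b did not follow Cd8b1, with 180 CPM (529 UMIs) and 185 CPM (734 UMIs) over all CD3 cells, a fold of 1.03 (0.919 to 1.15). Cycling CD3 cells that met the rest of the rule were 11 of 93 in the control and 19 of 98 in the knockout, 11.8% (6.05 to 20.2) and 19.4% (12.1 to 28.6), with intervals that overlap. When the rule was applied after every cell was thinned to 1500 UMIs, 18 and 54 cells met it and the ratio among cells deep enough was 1.66 (0.957 to 3.003), an interval that reaches 1. Among thinned CD3 cells the ratio was 2.48 (1.43 to 4.49). A genotype, the animals pooled for it, the tissue taken and the run of 1 library cannot be told apart in these shares.

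Set against gamma delta T cells of the same library, the members had higher summed levels of the naive and recirculating list and of the interferon response list, and lower summed levels of the natural killer receptor list. Of 3181 genes tested, 169 (5.31%) were at least 1.5-fold higher in the members in both libraries and 226 (7.10%) at least 1.5-fold lower in both. A gene was tested where it reached the minimum in the higher class, so one that reached it in a single class leaned towards being called. Sums over whole lists are given beside some of the counts. The median log2 fold over all genes tested was -0.03 in each library. Each comparison was made within a library, so the 2 folds given for a gene are its only repeat.

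Ms4a4b stood at 43.2 and 40.6 CPM in gamma delta T cells, 21.3-fold and 20.7-fold below the members. Gzmk had 11 and 42 UMIs there, and the members were 32.2-fold and 8.27-fold higher. Ly6c2 had 24 and 38 UMIs in the members and 0 in 186 and 212 gamma delta T cells, which against a floor of 3 UMIs over the class is at least 55.6-fold and 33.3-fold higher. One cell held 13 of the 24 control UMIs of Ly6c2 and 1 cell 14 of the 38 in the knockout, and without these cells the bounds were 26.3-fold and 21.3-fold. Only some members held it, 7 of 27 and 11 of 87, and it may share reads with its near-identical copy Ly6c1. Ctla2a, a cysteine protease inhibitor, was 50.1-fold and 23.3-fold higher, or 23.03-fold and 20.1-fold without the richest cell of each library, which held 20 of 36 UMIs in the control. Ly6a (Sca-1), a surface protein induced by interferon, was 13.1-fold and 45.4-fold higher. Gm8369, a predicted gene, had 28 and 52 UMIs in the members and 1 and 4 in gamma delta T cells, 195-fold (32.2 to 7961) and 34.2-fold (12.6 to 130.3) higher. Most of these rest on few UMIs in the gamma delta class, with 5 and 7 for Ctla2a and 17 and 4 for Ly6a.

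Cd6, a scavenger receptor family coreceptor that binds CD166, was 13.1-fold and 42.1-fold higher. Sh2d1a, which encodes the adaptor SAP, was 14.4-fold and 16.3-fold higher, and Itga4, the alpha 4 chain of gut and endothelial homing integrins, 9.08-fold and 10.4-fold. Thy1 was 6.49-fold and 5.55-fold higher. Lat, the scaffold that T cell receptor signals are built on, stood at 461 and 301 CPM in the members and 77.3 and 70.4 CPM in gamma delta T cells. Its relative Lat2 showed the reverse, with 3 and 5 UMIs in the members and 189 and 200 in gamma delta T cells. Of the 15 genes listed for proximal receptor signalling, 4 were higher in both libraries, Lat, Themis and Prkcq among them, and 2 lower (Ptpn6, a phosphatase, and Txk, a kinase). Plcg1, Prkcq and Themis reached the minimum only in the members, so the count is no support by itself. The list summed to 5252 and 3898 CPM in the members and 4264.5 and 3518 CPM in gamma delta T cells. Themis, needed for T cell selection, was 8.11-fold and 3.87-fold higher. Of the T cell receptor and CD3 list, Trac alone was called, with 2.14-fold and 2.22-fold more in the members.

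The 13 naive and recirculating genes summed to 1278 and 808 CPM in the members and 365 and 364 CPM in gamma delta T cells. Of the 7 that were tested, 5 were higher in both libraries and none lower, but all 5 reached the minimum only in the members, so the count is no support by itself. They were Il7r, the receptor for a survival cytokine, at 13.9-fold and 12.1-fold, Klf2, a factor that keeps trafficking receptors on, at 41.7-fold and 6.18-fold, Lef1 at 13.2-fold and 4.39-fold, Satb1 and Actn1. Tcf7 was not called, with a fold of 2.13 in the control and 0.689 in the knockout. The 20 interferon response genes summed to 4323 and 2702 CPM in the members and 1863 and 1487 CPM in gamma delta T cells. Of 17 tested, 12 were higher and 1, Irf8, was lower, and 5 of the 17 reached the minimum only in the members. Isg15, a ubiquitin-like antiviral protein, was 3.48-fold and 2.33-fold higher. Ifit1, an antiviral RNA-binding protein, was 78.2-fold higher in the control and 3.20-fold in the knockout. Of 10 MHC class I genes tested, H2-Q7, H2-T23 and Tap1 were higher and none lower, and H2 genes share reads with close copies.

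The 16 natural killer receptor and adaptor genes summed to 733 and 527 CPM in the members and 4151 and 3861 CPM in gamma delta T cells. Of these, 5 were tested and called lower (Fcer1g, Tyrobp, Klrd1, Cd244a and Klra5), and Klra5 reached the minimum only in gamma delta T cells. The other 11 were under the minimum. Fcer1g, the signalling chain of Fc and natural killer receptors, stood at 203 and 105 CPM against 2152 and 2109 CPM in gamma delta T cells, a fold of 0.0941 and 0.0496. Tyrobp, which encodes the adaptor DAP12, had a fold of 0.126 and 0.0618. Xcl1, a chemokine that draws cross-presenting dendritic cells, stood at 83.8 and 24.0 CPM against 837 and 804 CPM. Mei1, Tnfrsf9 (the costimulatory receptor 4-1BB), Kit and Cd200r1, an inhibitory receptor, were all lower, and Cd7 had a fold of 0.183 and 0.185. Il2rb, the chain through which interleukin 15 signals, had a fold of 0.258 and 0.192, and Bcl2 had one of 0.550 and 0.233. Of the inhibitory receptors, Ctla4 was 3.97-fold and 4.31-fold higher and Cish, a feedback inhibitor, 2.72-fold and 3.08-fold, while Cd96, Lag3 and Cd200r1 were lower. Ctla4 reached the minimum only in the members, and Lag3 and Cd200r1 only in gamma delta T cells.

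Cytotoxic genes did not move as a block. Gzma was the most abundant granzyme of the members at 11523 CPM (1650 UMIs) and 11155 CPM (5120 UMIs), yet it reached only 0.373 and 0.428 of the gamma delta level. Gzmb stood at 1837 and 2549 CPM, with a fold of 0.279 and 0.444, and Cst7 was also lower. Gzmk was the 1 gene of 9 tested in this list that was higher, and it reached the minimum only in the members. Ccl5, the most abundant chemokine, stood at 17452 and 22904 CPM, with a fold of 0.646 and 0.943 that was not called. None of 29 ribosomal protein genes was called in either direction. Of 19 epithelial genes tested, 5 (Apob, Fabp2, Krt20, Lct and Prap1) were higher in the members in both libraries. These move with the members that carry epithelial RNA, and their part in other folds is shown by leaving those cells out of both classes. None of these 5 then passed 1.5-fold in both libraries. Ms4a4b was then 25.4-fold and 22.3-fold higher and Fcer1g had a fold of 0.118 and 0.0511. Txk and Lag3 no longer passed in the control, with folds of 0.694 and 0.678, nor did Klrd1 in the knockout, with a fold of 0.749.

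**Figure D4:**
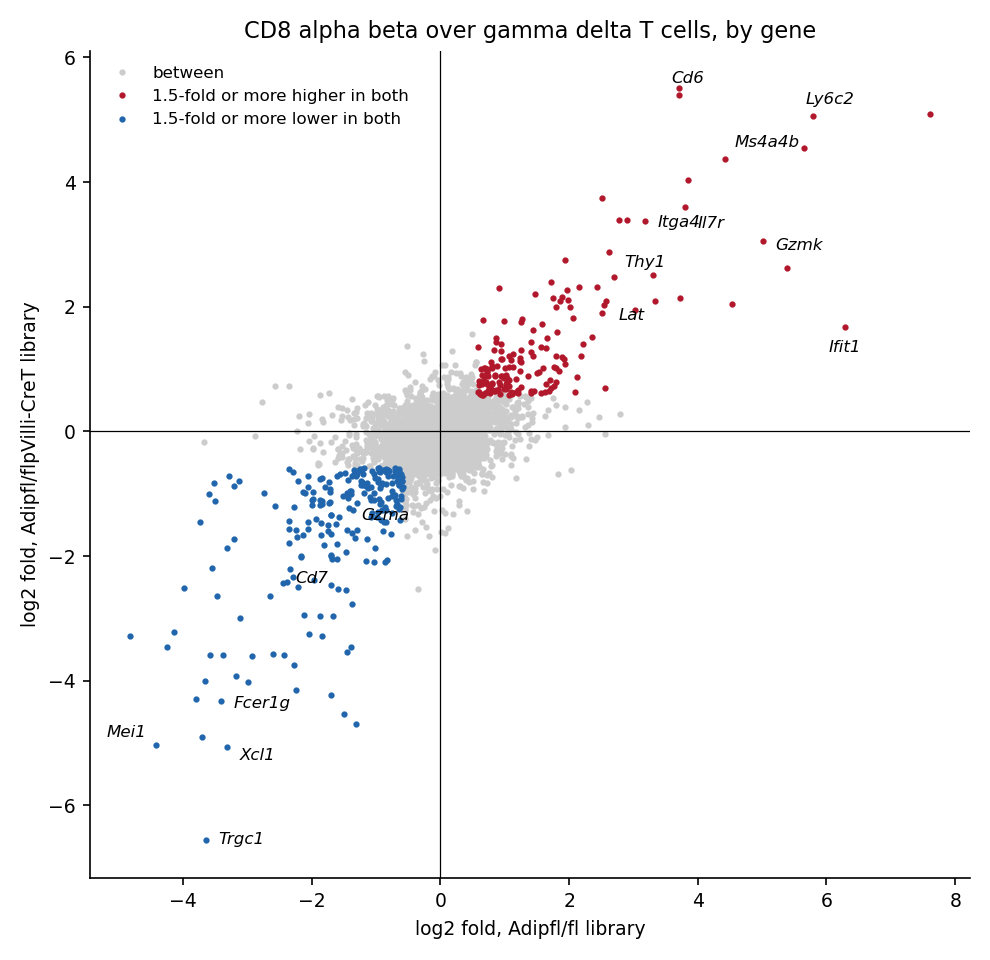
Log2 fold of each of 3181 genes, CD8 alpha beta over gamma delta T cells, in the control (horizontal) and knockout (vertical) library. Red points are the 169 genes at least 1.5-fold higher and blue points the 226 at least 1.5-fold lower in both, with Ms4a4b, Ly6c2 and Cd6 at the upper right, Ifit1 far higher in the control than in the knockout, and Trgc1, Mei1, Xcl1 and Fcer1g at the lower left.

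The remaining CD3 cells, with neither Cd8b1 nor Trdc UMIs, had a Trac level near that of the members, 750 and 521 CPM. Of 3178 genes, 132 (4.15%) were at least 1.5-fold higher in the members than in these cells in both libraries and 167 (5.25%) at least 1.5-fold lower. This class can hold both CD8 alpha homodimer T cells and cells whose Cd8b1 or Trdc RNA was not captured. In the knockout, 1 barcode held 116134 of the 948249 UMIs of this class. The B and plasma list summed to 10690 CPM in the class there, against 317 CPM in the control. Ms4a4b was 5.02-fold and 5.85-fold higher in the members, Gzmk 8.06-fold and 5.35-fold, and Ly6c2, with 2 and 3 UMIs in these cells, 62.6-fold (15.5 to 546.2) and 26.2-fold (8.30 to 132.5). Lgals1, a galactose-binding lectin of activated T cells, was 22.5-fold and 5.80-fold higher. Of the coreceptor and adhesion list, Cd2, Cd5, Cd6 and Thy1 were higher in both, with Cd2 at 4.17-fold and 6.46-fold. All 4 reached the minimum only in the members, so the count is no support by itself. The list summed to 2186 and 1882 CPM in the members against 1259 and 893 CPM, but it includes Cd8b1, which the rule used. Cd5 no longer passed in the control without the members rich in epithelial RNA, at 1.29-fold. Thy1 stood at 293 and 170 CPM in the members against 37.5 and 44.3 CPM. Fcer1g had a fold of 0.0983 and 0.0611, Tyrobp of 0.114 and 0.0650, and Xcl1 of 0.118 and 0.140. Lat2 had folds of 0.115 (0.0234 to 0.343) on 3 UMIs and 0.102 (0.0325 to 0.247) on 5 UMIs. Il7r, far above gamma delta T cells, was not called here, with folds of 1.23 and 1.52. Of the 17 interferon genes 8 were higher and Irf8 was lower, while Ifit1 had folds of 9.02 and 1.35 and was not called. Gbp2, Ifit1, Rtp4 and Xaf1 reached the minimum only in the members. The interferon list summed to 4323 and 2702 CPM in the members and 2101 and 1975 CPM in the other CD3 cells.

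The members were not uniform, and Itgae and Ly6c2 were seldom found in the same cell. The genes for this description were chosen after their values were seen, and the counts depend on depth. Itgae was detected in 19 of 27 control and 64 of 87 knockout members, and in 13 and 49 after thinning. Ly6c2 was detected in 7 and 11 members. Itgae was found in 2 of the 7 control members with Ly6c2 and in 17 of the 20 without it. In the knockout it was found in 1 of 11 members with Ly6c2 and in 63 of 76 without. Median depth was 4582 UMIs with Ly6c2 and 4386 without it in the control, and 5467 and 3921.5 in the knockout. After thinning to 1500 UMIs, Itgae was found in 2 of 5 control members with Ly6c2 and 50% of the rest, and in 0 of 5 and 59.8% in the knockout, so that in the control the division was no longer seen.

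Members without an Itgae UMI, 8 in the control and 23 in the knockout, differed from members with one in the summed levels of several genes, without thinning. Some of these levels rest on few cells. Klf2 stood at 551 CPM (18 UMIs in 3 cells) and 303 CPM (34 UMIs in 9 cells) in them. In the 19 and 64 members with Itgae it stood at 109 CPM (12 UMIs in 3 cells) and 57.7 CPM (20 UMIs in 4 cells). S1pr1, the receptor for exit from tissue, stood at 214 CPM (7 UMIs in 3 cells) and 116 CPM (13 UMIs in 7 cells) without Itgae. With Itgae, S1pr1 stood at 36.2 CPM (4 UMIs in 1 control cell) and 28.8 CPM. Itga4 stood at 612 and 544 CPM without Itgae and 244 and 210 CPM with it. Ms4a4b was higher too, at 1346 and 1463 CPM without Itgae and 796 and 637 CPM with it. Gzma, Gzmb, Ccr9 and Cd160 ran the other way. Gzma stood at 3825 CPM (in 3 of 8 cells) and 2516 CPM (in 11 of 23 cells) without Itgae. With Itgae, Gzma stood at 13799 CPM (in 15 of 19 cells) and 13947 CPM (in 53 of 64 cells). Gzmb stood at 918 and 1017 CPM without Itgae against 2108 and 3044 CPM. Ccr9, the chemokine receptor for homing to the small intestine, stood at 30.6 CPM (1 UMI) and 125 CPM against 281 and 346 CPM, and Cd160, an intraepithelial lymphocyte receptor, at 245 and 161 CPM against 498 and 470 CPM. Fcer1g had 0 UMIs in the control and stood at 8.92 CPM in the knockout without Itgae. With it, Fcer1g stood at 262 and 135 CPM, from 2 of the 19 and 3 of the 64 cells, so these levels describe few cells. Gzmk, Cxcr6 and Ccl5 did not keep 1 direction. Gzmk stood at 551 and 241 CPM without Itgae and 299 and 303 CPM with it, Cxcr6 at 30.6 and 232 CPM against 217 and 127 CPM, and Ccl5 at 20930 and 17573 CPM against 16423 and 24627 CPM. All 4 control members with much epithelial RNA, and 9 of 13 in the knockout, were among the members with Itgae.

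Gzmk and Gzmb were often found in the same cell. Gzmb was found in 13 of 15 control members with Gzmk and in 41.7% of those without it, and in 42 of 46 knockout members with Gzmk and in 58.5% of the rest. After thinning the counts were 7 of 9 and 29 of 32 with Gzmk, against 33.3% and 50.9%. Gzma varied widely over cells. It ranged from 0 to 557 UMIs in the control with a median of 19, where 1 cell held 33.8% of the UMIs, and from 0 to 343 with a median of 26 in the knockout. Ccl5 ranged from 0 to 227 UMIs per cell in the control and from 0 to 453 in the knockout, with medians of 95 and 92, and was detected in 24 of 27 and 81 of 87 members. Of the beta chain constant genes, Trbc2 had more UMIs than Trbc1 in 23 of 27 and 62 of 87 members. Trbc1 had more in 3 of 27 control members (11.1%, interval 2.35 to 29.2) and 22 of 87 knockout members (25.3%, 16.6 to 35.7).

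Between the libraries, many genes passed 1.5-fold in the members, in sums of few UMIs. Over 3692 genes with at least 50 CPM in the higher library and 20 UMIs in all, 801 (21.7%) were at least 1.5-fold higher and 713 (19.3%) at least 1.5-fold lower in the knockout, with a median log2 fold of -0.06. Without the 17 members rich in epithelial RNA, 571 of the same 3692 genes (15.5%) were higher and 737 (20.0%) lower. The background of called genes is thus high, and a gene list is read against it.

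The genes furthest above the control were epithelial. Spink1, a trypsin inhibitor, had 15 UMIs in the control and 832 in the knockout (17.3-fold, 10.4 to 31.1), of which 1 knockout cell held 334, and Sis, which encodes sucrase-isomaltase, 16 and 804 (15.7-fold, 9.59 to 27.6). Fabp1, Fabp2, Reg3b, Mgam, Tm4sf5 and Atp1b1 followed, and Epb41l3 had 0 UMIs in the control and was at least 10.5-fold higher. Mt1, a metallothionein, was 23.9-fold higher, with 1.42 (0.451 to 5.86) once the cells rich in epithelial RNA were left out. With those cells left out, Fabp1 had a fold of 0.921 (0.503 to 1.76), Fabp2 of 0.862 (0.619 to 1.21) and Spink1 of 1.75 (0.801 to 4.34). Of 21 epithelial genes over the minimum, 4 were then at least 1.5-fold higher and 2 lower. Sis stayed higher, from 2.49-fold to 40.8-fold over the alternatives, with 4.06 (0.945 to 36.6) among the members at or below the median epithelial share. The fatty acid list summed to 6.196-fold more in the knockout in all members and 0.997-fold (0.801 to 1.25) without the cells rich in epithelial RNA. The 13 mitochondrial protein-coding genes summed to 1.62-fold and 1.06-fold in the same order.

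The summed level of interferon response genes was lower in the knockout members, with and without the cells rich in epithelial RNA. The 20 genes summed to 4323 CPM in the control and 2702 CPM in the knockout, a fold of 0.625 (0.567 to 0.689), and of 0.762 (0.681 to 0.852) without those cells. Of 17 over the minimum, 9 were at least 1.5-fold lower and none higher, beside 19.3% lower and 21.7% higher among all genes. Their median log2 fold was -0.62, and without those cells -0.47, with 7 lower. Of the genes over the minimum that were found in at least 10 members, Ifit1 had the lowest upper limit of the fold. It had 45 UMIs in 9 of 27 control members (314 CPM) and 28 UMIs in 15 of 87 knockout members (61.0 CPM). Its fold was 0.194 (0.117 to 0.318). One control cell held 18 of its 45 UMIs, and the fold was 0.254 without the richest cell of each library. In gamma delta T cells the list had a fold of 0.798 (0.748 to 0.852), in the same direction as in the members, and in the other CD3 cells one of 0.9399 (0.878 to 1.01). Single genes differed from it. In gamma delta T cells Ifit1 ran the other way, at 4.74-fold (1.62 to 18.9) on 4 and 23 UMIs. Isg15 had a fold of 0.591 (0.412 to 0.857) in the members, 0.723 (0.473 to 1.12) without those cells and 0.884 in gamma delta T cells.

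The summed level of naive and recirculating genes was also lower. It stood at 1278 and 808 CPM, a fold of 0.632 (0.528 to 0.759), and of 0.702 (0.578 to 0.854) without the cells rich in epithelial RNA. Of 8 over the minimum, Klf2, Lef1, S1pr1 and Tcf7 were lower and none higher, beside 19.3% lower among all genes, with a median log2 fold of -0.55. Without those cells 3 were lower, beside 20.0% of all genes, and the median was -0.37, with S1pr1 at a fold of 0.721. Tcf7, a factor of naive and memory T cells, had 34 UMIs in 10 of 27 control members and 33 UMIs in 21 of 87 knockout members, a fold of 0.303 (0.182 to 0.504), or 0.409 (0.226 to 0.744) without those cells. Klf2 had a fold of 0.562 (0.353 to 0.909), or 0.573 (0.351 to 0.9496), and Lef1 one of 0.493 (0.268 to 0.926), or 0.5998 (0.315 to 1.17), in the same order. Klf2 sat in 6 of 27 and 13 of 87 members, and its fold in gamma delta T cells was 3.79 (1.41 to 12.8). Il7r did not differ beyond its interval, at 154 and 150 CPM, a fold of 0.978 (0.598 to 1.66). Cd28, the costimulatory receptor, had 20 and 16 UMIs, a fold of 0.250 (0.121 to 0.507), or 0.227 without the cells rich in epithelial RNA. Bcl2 had one of 0.386 (0.246 to 0.608), or 0.526 (0.329 to 0.850). Socs1, a brake on cytokine signalling, had one of 0.292 (0.135 to 0.632), or 0.472 (0.206 to 1.10), whose interval includes 1. Tpm4, Syncrip and Zranb2 were between 0.342 and 0.366, and between 0.409 and 0.438 without those cells.

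Of 9 cytotoxic genes none passed 1.5-fold in either direction, and the sum stood at 17445 and 17090 CPM (fold 0.980, 0.936 to 1.03). Without the cells rich in epithelial RNA the fold of the sum was 1.09 (1.04 to 1.14), so its direction depended on them, and again none of the 9 passed. Gzmb had a fold of 1.39 (1.21 to 1.59), but 1 control cell held 101 of its 263 control UMIs, and without the richest cell of each library the fold was 1.97. Without the cells rich in epithelial RNA the Gzmb fold was 1.38. Gzma had a fold of 0.968 (0.916 to 1.02) over all members and 1.06 without those cells, and Gzmk one of 0.807 (0.580 to 1.14) and 0.957. Ccl5 was 1.31-fold higher (1.26 to 1.37), and 1.54-fold (1.47 to 1.61) without the cells rich in epithelial RNA, where gamma delta T cells had a fold of 0.900. The marker Ms4a4b had a fold of 0.910 (0.745 to 1.12), or 1.07 (0.859 to 1.33) without those cells, and Itgae one of 1.02 (0.772 to 1.36), or 1.364 (1.004 to 1.88). The residency list had a sum fold of 0.878 (0.804 to 0.959), but 1.16 (1.05 to 1.28) without those cells. Of 15 residency genes 2 were lower, Cd69 and Prdm1, and none higher, while 0 were lower and 3 higher without those cells. Proximal signalling genes had 7 of 15 lower with all members and 3 of 15 without the cells rich in epithelial RNA, and ribosomal genes 6 of 29 and 0 of 29. The summed level of the signalling list had a fold of 0.742 in the members, or 0.925 without those cells. It was lower in the other classes as well, at 0.825 in gamma delta T cells and 0.750 in the other CD3 cells. MHC class I genes had 2 of 11 lower, immediate early genes 1 of 14 higher and 2 lower, memory and effector regulators 2 of 12 higher and 3 lower, and cytokine receptors 3 of 11 lower. Without those cells, MHC class I genes had 1 lower, immediate early genes 0 higher and 3 lower, memory and effector regulators 2 higher and 3 lower, and cytokine receptors 2 higher and 2 lower. Beside these counts, 21.7% of all genes were higher and 19.3% lower with all members, and 15.5% and 20.0% without those cells. Trbc1 was higher, at 412 and 706 CPM (fold 1.71, 1.29 to 2.30), and Trbc2 lower at 0.632 (0.546 to 0.733), or 0.822 (0.698 to 0.971) without the cells rich in epithelial RNA. One control cell held 30 of the 59 Trbc1 UMIs, and without the richest cell of each library the Trbc1 fold was 3.08. Among receptors for adiponectin, Adipor1 had 7 and 38 UMIs (fold 1.69, 0.747 to 4.49) and Adipor2 11 and 56 (1.59, 0.823 to 3.36), both with intervals that include 1. These 2 with Appl1 and Stk11, all 4 genes of the adiponectin receptor and AMPK list over the minimum, were at least 1.5-fold higher, beside 21.7% of all genes. Of the 13 genes listed 9 were under the minimum, and Adipor1, Appl1 and Stk11 reached it only in the knockout, so the count is no support by itself. Of the 4, 2 were at least 1.5-fold higher without the cells rich in epithelial RNA, where Adipor2 had a fold of 1.13. Among the members at or below the median epithelial share Adipor2 had a fold of 0.903. The list summed to 1.47-fold (1.05 to 2.09), or 1.41-fold (0.926 to 2.199) without the cells rich in epithelial RNA.

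Several genes differed between the libraries in other classes as well. The mitochondrial gene mt-Nd3 was 6.86-fold higher in the members (4.83-fold without the cells rich in epithelial RNA), 3.05-fold in gamma delta T cells, 3.85-fold in the other CD3 cells and 2.42-fold in epithelial barcodes. Mir6236 had folds of 0.397, 0.403, 0.385 and 0.451 in the same order, and Rn18s-rs5, a ribosomal RNA locus, of 0.585, 0.566, 0.576 and 0.651. Zg16, a goblet cell lectin, was 3.22-fold, 3.88-fold and 16.5-fold higher in the T cell classes but had a fold of 0.881 in epithelial barcodes. In the other CD3 cells the goblet and Paneth list stood at 334 CPM in the control and 5872 CPM in the knockout, where 1 barcode held 116134 of their 948249 UMIs. How much of the Zg16 fold rests on that barcode was not tested. In the members the Zg16 fold ran from 2.85 to 11.5 over the alternatives. By contrast, Bcl2l11, which encodes the death protein BIM, had 3 UMIs in 3 control members and 52 UMIs in 30 knockout members, a fold of 5.41 (1.75 to 27.1) that ran from at least 1.66, with 0 control UMIs, after thinning to 1500 UMIs to 15.2 among the members at or below the median epithelial share, beside 0.834 (0.695 to 1.00) in gamma delta T cells. Tnfaip3, which encodes the A20 brake on NF-kappa B, had a fold of 1.92 (1.04 to 3.89), and of 3.34 (1.53 to 8.66) without the cells rich in epithelial RNA, beside 0.740 in gamma delta T cells. Arap2 had a fold of 0.370, beside 0.714 in gamma delta T cells, and over the alternatives it ran from 0.0955 after thinning to 0.54 in members with 2 or more Cd8b1 UMIs. Trp53 had a fold of 0.343, beside 0.861, and ran from 0.237 among the members at or below the median epithelial share to 0.559 after thinning, where its interval (0.168 to 2.12) includes 1. These differences between classes were not tested.

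**Figure D5:**
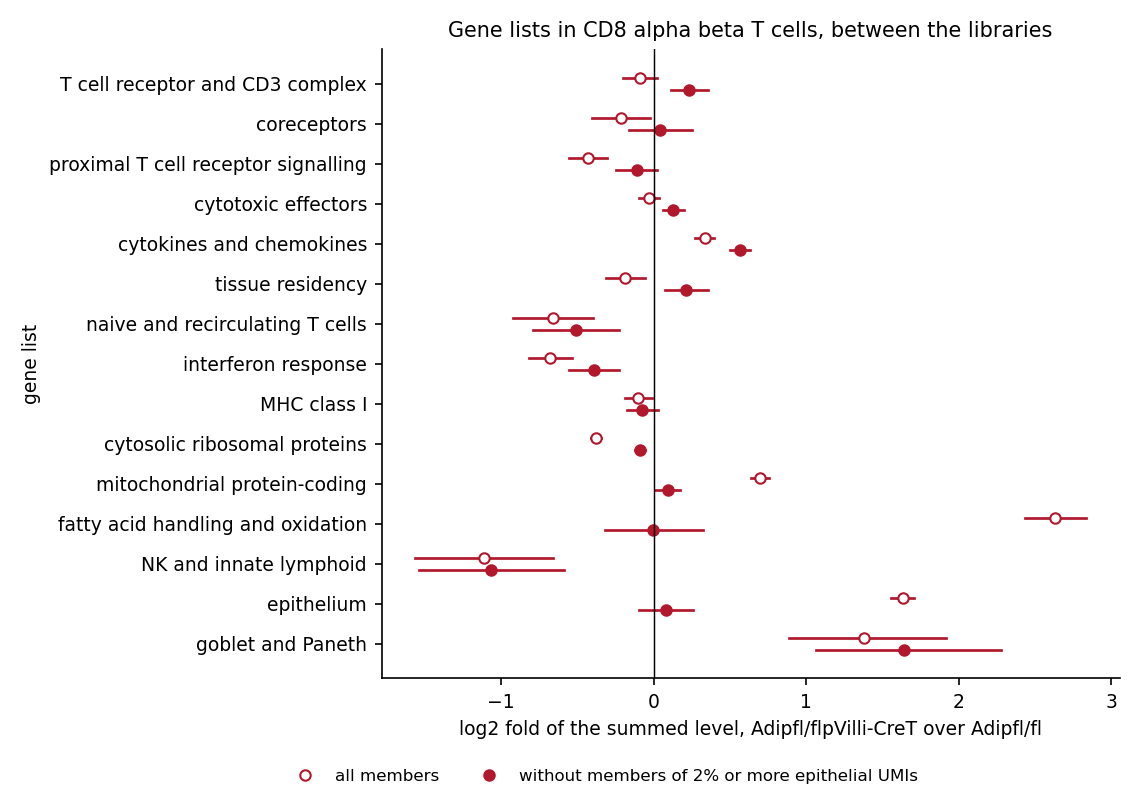
Log2 fold of the summed level of 15 gene lists in CD8 alpha beta T cells, knockout over control, with exact 95% intervals for counting error, for all members (open) and without the 17 members rich in epithelial RNA (filled). The epithelium, fatty acid and mitochondrial lists move to near 0 without those cells, while the interferon, naive and natural killer lists stay below 0 and the goblet and Paneth list stays above it.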

How the data were processed

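Single cells of small intestinal epithelium from Adipfl/fl and Adipfl/flpVilli-CreT mice were profiled by 10x Genomics 3′ sequencing in 1 library each. The authors converted reads with bcl2fastq 5.0.1 and aligned and counted them with Cell Ranger (7.1.0 per the file headers) on mm10, per the submitters' processing notes, and deposited raw UMI counts per gene and barcode (42150623 UMIs in 9791 barcodes and 63370798 in 11838).

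The study's filter (more than 500 genes, under 25% mitochondrial) left 3069 and 5555 cells, fewer than the study retained. With the mitochondrial share taken over 13 protein-coding genes more cells passed and the members were almost the same. UMIs were summed over cells and scaled to 1000000. Folds have exact conditional intervals, sums exact Poisson and shares exact Clopper-Pearson intervals (95%). A class with 0 UMIs was set to a floor of 3. Genes needed 50 CPM in the higher group and 20 UMIs in all, with a called fold of 1.5, and medians use log2 with 0.5 CPM added. The named genes, each with a symbol of its own, were those of the rule, the 4 most abundant and those past the fold in each of 29 lists, and 10 per direction in each comparison (between genotypes also without the 17 members rich in epithelial RNA). Between the genotypes those 10 were taken among genes found in at least 10 members in all. Not all are printed. The members, lists and rules were chosen with earlier results of these data known. Alternatives changed the rule's limits, the denominator, thinning depth (1500 UMIs, and 1000 for detection per cell alone) and minimum level. The fold and interval code was tested on simulated data. The code ran in Python 3.11.15 with scipy 1.17.1 for intervals, pandas 2.3.3 and numpy 2.4.6 for sums and matplotlib 3.10.9 for plots.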

Additional observations from a re-analysis of the deposited data

Results flagged for a closer look

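The ratio of the share of CD8 alpha beta T cells among cells that passed, knockout over control, was 1.78, while it was 0.630 for gamma delta T cells and 0.643 for Cd8b1-negative Trdc-negative CD3 cells. Among cells that passed, the classes thus ran in opposite directions between the genotypes, which was not tested because each genotype is 1 library. Among CD3 cells the ratios were 2.56, 0.905 and 0.925 in the same order, and the intervals of the last 2 include 1. Ifit1 ran in opposite directions, with a fold of 0.194 in the members and 4.74 in gamma delta T cells. So did Trbc1, with folds of 1.71 and 0.656, and Klf2, with folds of 0.562 and 3.79. These were the genes named in the text that passed 1.5-fold in both classes with counting intervals on opposite sides of 1, and the differences were not tested. In the members, 1 control cell held 30 of the 59 control UMIs of Trbc1, and the split of reads between Trbc1 and Trbc2 is uncertain. Klf2 sat in few members, and its interval in gamma delta T cells was wide.

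Cells outside the rule also carried its signal. Among barcodes over the mitochondrial limit, 1 of 4263 in the knockout and 0 of 4670 in the control met the rest of the rule. Among cycling CD3 cells, 11 in the control and 19 in the knockout met the rest of it.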

How the results depend on the processing

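The ratio of the shares of members stayed above 1 under all 12 alternatives run on it, from 1.10 (interval 0.621 to 2.03, which includes 1) with only members at or below the median epithelial share (19 and 38 cells, a choice that removes more knockout cells) to 2.56 with the mitochondrial share over 13 protein-coding genes or CD3 cells as denominator. Counts of genes moved with the minimum level, the cells and the depth, each of which also changed how many genes were tested. Between the genotypes, 801 higher and 713 lower of 3692 became 139 and 117 of 822 at a minimum of 200 CPM, 252 and 193 of 1323 after thinning to 1500 UMIs, 277 and 277 of 2068 with those low-epithelial members, and 477 and 416 of 3098 without members rich in epithelial RNA. Against gamma delta T cells, 169 higher became 92 after thinning. Against the other CD3 cells, 132 higher became 81 after thinning, and 132 higher and 167 lower became 265 and 394 with low-epithelial members. The remaining 71 of 84 values of these results stayed within 1.5 times or inside the interval.

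Of the 44 genes and 15 lists followed, folds past 1.5 that crossed 1 with low-epithelial members were Fabp1 (0.843), Reg3b (0.697), Fabp2 (0.847), Atp1b1 (0.361), Adipor2 (0.903) and the mitochondrial list (0.972). Without members rich in epithelial RNA, Fabp1 (0.921), Fabp2 (0.862), Atp1b1 (0.486) and the fatty acid list (0.997) did so. Folds within 1.5 crossed 1 upward in 6 and 7 cases: Gzma (1.08 and 1.06), Ms4a4b (1.07 in both), Cd8a (1.05 and 1.08) and the cytotoxic (1.11 and 1.09), T cell receptor and CD3 (1.17 and 1.18) and residency (1.14 and 1.16) lists in both settings, and Ccl4 (1.04) in the second. No paired analysis was possible because each genotype has 1 library. Depth limits all of this: the control members hold 143193 UMIs.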
